A study of Mus musculus with 12 samples.

Results

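The JAK kinases, STAT factors and SOCS feedback inhibitors described here are 10 genes, named Jak1, Jak2, Jak3, Tyk2, Stat3, Stat5a, Socs1, Socs2, Socs3 and Cish. They were chosen by name for their place in the pathway, with earlier results of these data known, and each was matched by symbol to 1 of the 57010 Ensembl mouse gene IDs in the tables. Poly(A) RNA was sequenced in 12 libraries of primary mouse chondrocytes, the cells that make and maintain cartilage matrix, all labelled wild type in genotype. The 12 libraries form 3 groups of 4: Control, whose transfection, if any, is not described; WT, read here as transfection with the wild-type plasmid; and SIRT5F101L, transfection with the F101L mutant. SIRT5 is a sirtuin of mitochondria that takes succinyl, malonyl and glutaryl groups off lysines. The labels give no strain, age, time after transfection, plasmid promoter or batch, and do not say whether the 4 libraries of a group come from separate animals or cultures, so the p-values measure the spread between these libraries, which may be technical.

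Cytokine and growth hormone receptors of the class that uses this pathway have no kinase activity of their own and hold JAK kinases on their inner tails. Ligand binding brings the kinases together, they phosphorylate each other and the receptor, and STAT proteins that dock there are phosphorylated, pair up and enter the nucleus as transcription factors. SOCS proteins and CISH are made in response to that activity and bind the receptor or the kinase, which shuts the signal down or marks it for degradation. In cartilage, interleukin-6 family cytokines that act through JAK1 and STAT3 are studied for their part in matrix loss, and growth hormone acts through JAK2 and STAT5.

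The sequence that activated STAT dimers bind is often found near the starts of the feedback inhibitor genes, so the stretch before the start is shown for those inhibitors whose transcripts moved most or were lowest, Socs3, Socs1 and Cish, and for the kinase gene with the largest change, Jak3. The letters are from RefSeq on build GRCm38.p6, each 5′ to 3′ on the gene's own strand, and capitals mark matches to TTCNNNGAA, the interferon-gamma activated site to which STATs bind. This motif reads the same on both strands. Positions count from 1 at the first transcribed base, with -1 just before it. Socs3 covers -250 to -1 (chr11:117969367-117969616, minus strand), Cish -230 to 20 (chr9:107296429-107296678, plus strand), Socs1 -250 to -1 (chr16:10785537-10785786, minus strand) and Jak3 -250 to -1 (chr8:71676133-71676382, plus strand).
Socs3: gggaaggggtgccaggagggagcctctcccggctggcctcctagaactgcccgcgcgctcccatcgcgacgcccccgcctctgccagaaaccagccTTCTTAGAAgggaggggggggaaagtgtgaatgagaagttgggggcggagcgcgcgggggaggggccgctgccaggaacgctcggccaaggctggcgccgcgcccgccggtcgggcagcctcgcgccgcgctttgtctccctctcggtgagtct
Cish: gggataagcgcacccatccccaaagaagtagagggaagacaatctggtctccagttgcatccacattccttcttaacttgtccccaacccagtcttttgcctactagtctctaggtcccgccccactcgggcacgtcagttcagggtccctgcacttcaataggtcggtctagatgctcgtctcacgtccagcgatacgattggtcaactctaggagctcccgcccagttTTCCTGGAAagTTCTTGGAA
Socs1: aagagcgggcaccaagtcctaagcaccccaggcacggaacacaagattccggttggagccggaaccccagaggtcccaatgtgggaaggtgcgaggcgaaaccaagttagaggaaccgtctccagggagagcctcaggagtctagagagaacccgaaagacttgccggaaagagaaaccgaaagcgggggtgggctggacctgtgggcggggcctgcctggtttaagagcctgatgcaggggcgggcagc
Jak3: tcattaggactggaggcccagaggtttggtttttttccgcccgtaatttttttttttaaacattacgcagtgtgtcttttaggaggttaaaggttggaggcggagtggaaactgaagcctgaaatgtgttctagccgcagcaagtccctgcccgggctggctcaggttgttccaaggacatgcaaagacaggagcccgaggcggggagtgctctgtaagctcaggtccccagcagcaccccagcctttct

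In the Cish window TTCCTGGAA stood at 1 to 9 and TTCTTGGAA at 12 to 20, and in the Socs3 window TTCTTAGAA stood at -154 to -146. Windows of 300 bases (250 before the start and 50 after it) were supplied for 9 of the 10 genes, and the windows of 2 of the 9, Cish and Socs3, held TTCNNNGAA. Of 32851 such windows over the mouse genome, 8.30% held it. The stricter form TTCCNGGAA, which is contained in TTCNNNGAA, was in the Cish window and in 1.15% of all windows. A match describes letters and not binding, and the windows without a match show only that these letters are not in them.

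Total counts per library ran from 15095357 to 24242139, and 14253 genes passed edgeR's expression filter. Levels are given as CPM, counts scaled to library size after TMM correction for library composition, and differences as log2 fold changes from edgeR's quasi-likelihood fit over all 12 libraries, called at a Benjamini-Hochberg adjusted p under 0.05 over all tested genes, 2-sided. SIRT5F101L replicate 1 stood apart from its group on the second principal component of log2 CPM, which held 5.66% of the variance. It lay at -20.3, beside WT replicates 2 to 4 at -20.1 to -12.5 and away from the other SIRT5F101L libraries at 17.0 to 23.5. WT replicate 1 lay at 1.07, between these ranges. Of 12 chondrocyte markers, all 12 averaged at least 1 CPM in Control and 11 did in each plasmid group. Their summed level was 9288 to 11645 CPM in Control, 2845 to 2959 in WT and 2315 to 2560 in SIRT5F101L, and 10 of the 12 fell in each comparison with Control. Of the other 2, named here after their values were seen, Hapln1, a matrix link protein gene, rose in both (0.25 and 0.18), and Acan, which encodes aggrecan, rose in WT (0.47) and was not called in SIRT5F101L. Fibroblast markers had lower sums too, 18082 to 21244 CPM in Control, 7553 to 8155 in WT and 7578 to 8268 in SIRT5F101L, with 4 of 6 lower and 2 higher in each comparison. Among all tested genes, 28.7% were called higher and 28.1% lower in WT against Control. In SIRT5F101L against Control, 30.0% were called higher and 30.7% lower. Osteoblast markers summed to 18.0 to 24.8, 4.11 to 4.79 and 3.51 to 5.21 CPM. The part of these shifts in the results below was not tested.

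Against Control, 7 of the 10 genes changed, and they were the same 7 genes with each plasmid: Jak1, Jak2, Jak3, Stat3, Socs2 and Socs3 rose and Socs1 fell. Both comparisons use the same 4 Control libraries. Of the other 3, Tyk2 and Stat5a were tested and not called, and Cish did not pass the filter. These counts stand against a background in which 56.8% of tested genes were called in WT against Control and 60.7% in SIRT5F101L against Control, so the number called among these genes is near what the whole transcriptome shows. Calls of higher genes made up 28.7% and 30.0% of tested genes, and calls of lower genes 28.1% and 30.7%. All libraries of one group lay beyond all of the other for 7 of the 9 tested genes in WT against Control, where 53.5% of tested genes did so, and for 6 of 9 in SIRT5F101L against Control, where 51.3% did. An unadjusted p under 0.05 was reached by 7 of the 9 in each, against 61.0% and 64.1% of tested genes. The median log2 fold change of the 9 tested genes was 0.42 in WT and 0.51 in SIRT5F101L, where that of all tested genes was -0.01 and -0.02. Without SIRT5F101L replicate 1 the same 7 genes were called in each comparison. In bulk RNA, fewer cells of a type and less RNA per cell cannot be told apart.

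**Figure D1:**
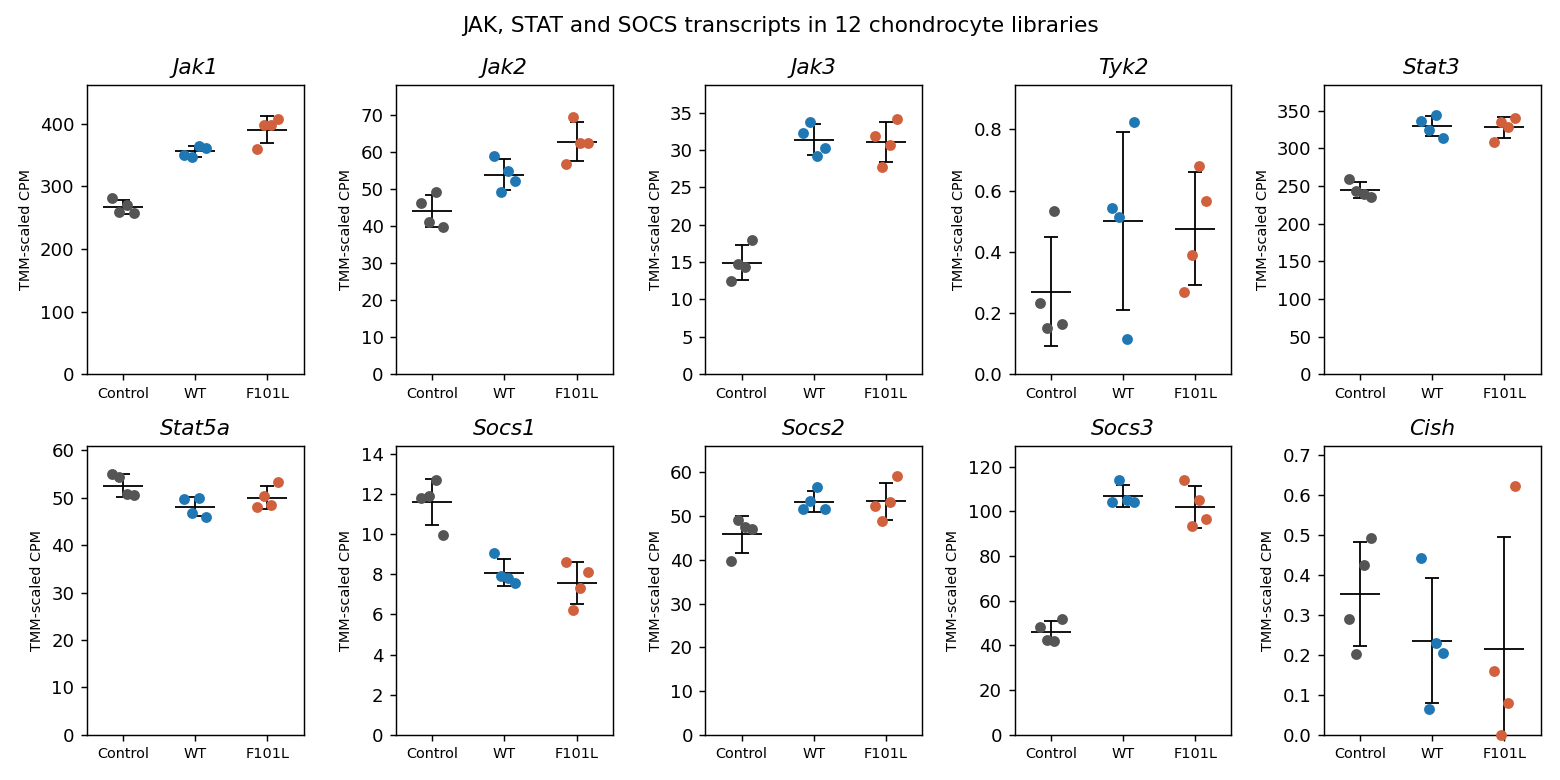
TMM-scaled CPM of each of the 10 genes in each library (points), with the mean and SD of the 4 libraries per group (bars); F101L stands for SIRT5F101L and each vertical axis starts at 0. All 8 plasmid libraries lie above all 4 Control libraries for Jak1, Jak3, Stat3 and Socs3, and below them for Socs1.

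The kinases were taken first. Jak1 encodes the kinase shared by interleukin-6 family, interferon and gamma-chain receptors. Its level was 281, 259, 271 and 258 CPM in Control replicates 1 to 4, 351, 347, 364 and 362 CPM in WT, and 360, 399, 399 and 407 CPM in SIRT5F101L. Every plasmid library was above every Control library, and the SIRT5F101L library nearest to WT was replicate 1. The mean rose from 267 ± 11.1 CPM (SD, n = 4) to 356 ± 8.35 CPM in WT, or 0.42 ± 0.06 (SE) in log2 units by edgeR (adjusted p 2.92e-06), and to 391 ± 21.4 CPM in SIRT5F101L, or 0.55 ± 0.06 (adjusted p 5.70e-08).

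Jak2 encodes the kinase of the growth hormone, leptin and erythropoietin receptors. It stood at 46.2, 41.2, 49.2 and 39.8 CPM in Control, 58.9, 49.1, 54.9 and 52.2 CPM in WT, and 56.8, 69.5, 62.4 and 62.3 CPM in SIRT5F101L. The WT and Control ranges overlapped, since the lowest WT library lay below the highest Control library, while all SIRT5F101L libraries lay above Control. By edgeR it rose by 0.29 ± 0.08 (SE) in log2 units in WT (adjusted p 0.00564) and by 0.51 ± 0.08 in SIRT5F101L (adjusted p 2.20e-05).

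Jak3, a kinase best known from lymphocytes, where it works with the common gamma chain, had the largest change of the kinases. Its level was 12.4, 14.7, 14.4 and 18.0 CPM in Control, 32.3, 33.7, 29.2 and 30.3 CPM in WT, and 31.9, 27.7, 30.6 and 34.1 CPM in SIRT5F101L. No plasmid library came near the Control range. The mean rose from 14.9 ± 2.32 CPM (SD, n = 4) to 31.4 ± 2.01 CPM in WT (log2 fold change 1.08, SE 0.10, edgeR adjusted p 1.70e-08) and to 31.1 ± 2.67 CPM in SIRT5F101L (1.06, SE 0.10, edgeR adjusted p 1.91e-08).

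The leukocyte markers were set beside Jak3. Of 13 leukocyte and macrophage markers, 10 were tested. In each comparison with Control 9 of the 10 fell, where 28.1% of all tested genes were called lower in WT and 30.7% in SIRT5F101L. Only Cd14, a lipopolysaccharide co-receptor named here after its value was seen, rose. Ptprc, the pan-leukocyte marker CD45, fell from 1.90 ± 0.311 CPM to 0.788 ± 0.400 CPM in WT and 0.710 ± 0.288 CPM in SIRT5F101L (edgeR adjusted p 0.00511 and 0.00237). The summed level of the 13 markers was 83.9 to 99.7 CPM in Control, 84.4 to 89.8 CPM in WT and 92.9 to 112 CPM in SIRT5F101L, and without Cd14 it was 72.1 to 88.3, 33.5 to 37.6 and 35.9 to 40.5 CPM. Itgam and Cd3e were listed at 0 in all 12 libraries. Il2rg, the common gamma chain, was also listed at 0, but it is X-linked and all 2414 IDs placed on the X chromosome were at 0, so its entry says nothing of its level. The same-strand neighbour Insl3 overlaps 7.55% of Jak3 exon sequence in GENCODE M21 and was listed at 0.

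Tyk2 encodes the kinase of the type I interferon and interleukin-12 family receptors. It had only 4, 3, 10 and 3 counts in Control, 11, 8, 2 and 16 in WT, and 5, 6, 17 and 10 in SIRT5F101L. The groups overlapped, and the log2 fold changes of 0.89 (95% interval -0.28 to 2.05) in WT and 0.83 (-0.33 to 1.99) in SIRT5F101L were not called (edgeR adjusted p 0.185 and 0.203). Changes of this size were not resolved at these counts. A low entry in these tables is not by itself a sign of a silent gene: B2m, Hif1a and Eif3m, used by nearly every cell and named here after their values were seen, were listed at 0 in all 12 libraries. In GENCODE M21, 8.07% of Tyk2 exon sequence overlaps an opposite-strand gene, and the strand setting of the counting is not given in the sources used here.

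Of the STAT members, Stat3 encodes the main factor of the interleukin-6 family response. It stood at 260, 244, 240 and 236 CPM in Control, 337, 325, 344 and 314 CPM in WT, and 309, 335, 328 and 340 CPM in SIRT5F101L. All plasmid libraries were above all Control libraries and the plasmid groups overlapped. The mean rose from 245 ± 10.7 CPM (SD, n = 4) to 330 ± 13.5 CPM in WT (log2 fold change 0.43, SE 0.06, edgeR adjusted p 1.78e-06) and to 328 ± 13.5 CPM in SIRT5F101L (0.42, SE 0.06, edgeR adjusted p 2.03e-06).

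Stat5a encodes one of the paired STAT5 factors that carry growth hormone, prolactin and interleukin-2 signals. It stood at 55.0, 54.3, 50.8 and 50.5 CPM in Control, 49.8, 46.9, 49.9 and 45.9 CPM in WT, and 48.0, 50.3, 48.5 and 53.3 CPM in SIRT5F101L. The WT libraries all lay just below the Control range, and the SIRT5F101L libraries overlapped it. Neither log2 fold change was called by edgeR: -0.13 ± 0.06 (SE) in WT (adjusted p 0.0969) and -0.07 ± 0.06 in SIRT5F101L (adjusted p 0.340). With upper-quartile scaling the WT value was -0.18 and passed (edgeR adjusted p 0.0239). Of the longest Stat5a transcript, 23.7% has a copy of at least 95% identity in Stat5b, so reads of the pair may be split or lost. Stat5b itself had log2 fold changes of 0.06 and 0.15 (edgeR adjusted p 0.489 and 0.0629). Stat3 and Stat5a lie tail to tail on chromosome 11 in GENCODE M21 and share 72 bases on opposite strands, which is 1.01% of Stat5a and 0.756% of Stat3 exon sequence.

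The feedback inhibitors went in opposite directions. Socs3 encodes the inhibitor that binds the interleukin-6 receptor subunit gp130 and JAK1 or JAK2. It stood at 48.3, 42.3, 42.1 and 51.9 CPM in Control, 104, 114, 105 and 104 CPM in WT, and 114, 93.6, 105 and 96.4 CPM in SIRT5F101L. The lowest plasmid library was far above the highest Control library. Its mean rose from 46.1 ± 4.81 CPM (SD, n = 4) to 107 ± 4.84 CPM in WT, a 2.31-fold change (log2 fold change 1.21, SE 0.08, edgeR adjusted p 5.16e-11), and to 102 ± 9.27 CPM in SIRT5F101L, a 2.22-fold change (1.15, SE 0.08, edgeR adjusted p 1.06e-10). This was the largest change among the 9 tested genes in both comparisons.

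Socs1 encodes an inhibitor that blocks JAK catalytic sites directly and is known for restraining interferon-gamma signals. It stood at 11.8, 11.9, 12.7 and 9.94 CPM in Control, 9.08, 7.89, 7.80 and 7.56 CPM in WT, and 8.61, 6.24, 7.34 and 8.11 CPM in SIRT5F101L. Every plasmid library was below every Control library. Its mean fell from 11.6 ± 1.17 CPM (SD, n = 4) to 8.08 ± 0.679 CPM in WT (log2 fold change -0.52, SE 0.12, edgeR adjusted p 0.00117) and to 7.57 ± 1.03 CPM in SIRT5F101L (-0.61, SE 0.12, edgeR adjusted p 0.000226).

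Socs2 encodes the inhibitor known for limiting growth hormone signals. It stood at 39.7, 49.0, 47.6 and 47.0 CPM in Control, 51.6, 53.4, 56.6 and 51.5 CPM in WT, and 52.4, 48.9, 53.3 and 59.1 CPM in SIRT5F101L. Control replicate 1 was the lowest library, and the SIRT5F101L and Control ranges overlapped. The log2 fold change was 0.22 in both (SE 0.08; edgeR adjusted p 0.0215 in WT and 0.0174 in SIRT5F101L). These calls were lost without Control replicate 1 (0.15 and 0.16, edgeR adjusted p 0.0982 and 0.0840) and with upper-quartile scaling (0.17 and 0.18, edgeR adjusted p 0.0756 and 0.0553). They were also lost without WT replicate 3 (0.19, edgeR adjusted p 0.0721) and without SIRT5F101L replicate 4 (0.17, edgeR adjusted p 0.0764). Copies of at least 95% identity, in predicted genes, cover 10.7% of the longest Socs2 transcript.

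Cish encodes the inhibitor of STAT5 docking and is a familiar STAT5 target. It had 5, 4, 8 and 9 counts in Control, 9, 1, 4 and 4 in WT, and 3, 0, 2 and 11 in SIRT5F101L. Several of these entries lay at or below 3 counts, too few to order the libraries, so no fold change is given. Its exons overlap opposite-strand predicted genes over 11.5% of their length, both of which were listed at 0, and the caution on low entries given for Tyk2 applies to Cish too.

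**Figure D2:**
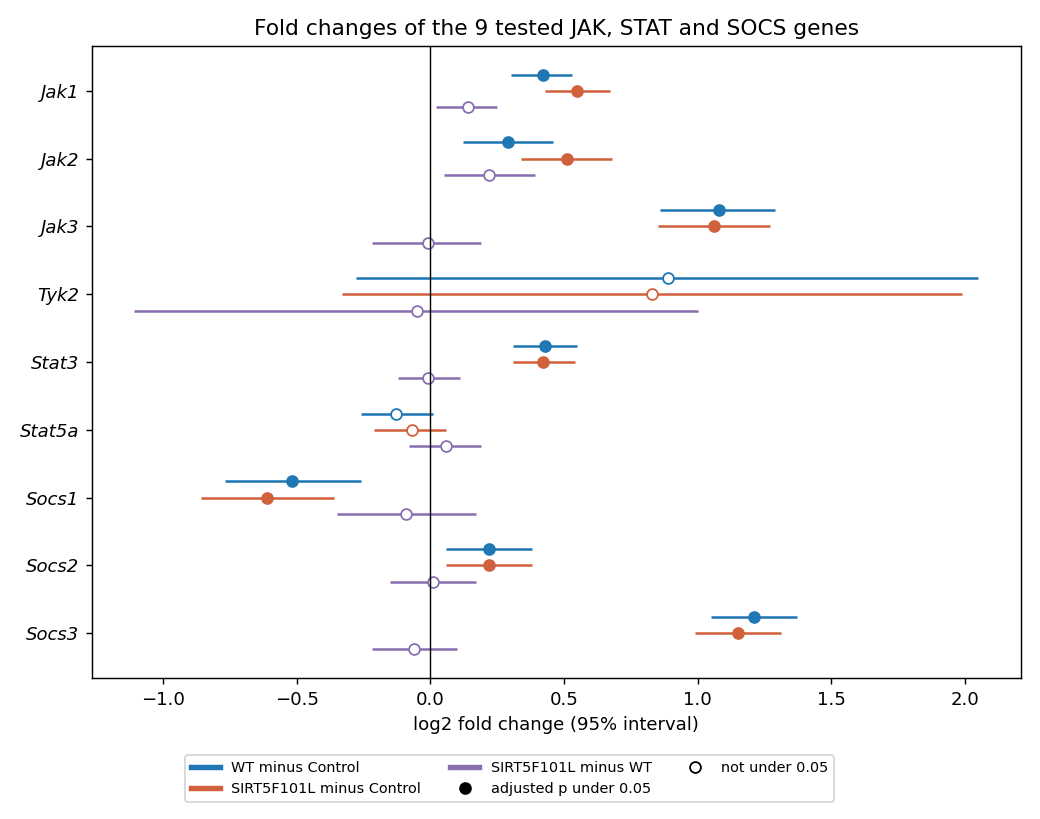
Log2 fold change (points) with its 95% interval (lines) for the 9 tested genes in the 3 comparisons; filled points passed an adjusted p under 0.05 and open points did not. Socs3 and Jak3 lie farthest to the right against Control, Socs1 is the only called gene to the left, and no SIRT5F101L minus WT point is filled.

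Setting SIRT5F101L against WT compares the groups whose plasmids differ by the F101L substitution. Any other difference between these groups cannot be told apart from the substitution here. By edgeR none of the 9 tested genes was called, where 0.0421% of all tested genes were (0.0281% higher and 0.0140% lower in SIRT5F101L), and 2 of the 9 had an unadjusted p under 0.05, against 11.9% of all tested genes. DESeq2 likewise called 0 of these genes, with 2 at an unadjusted p under 0.05. The 2 were the kinase genes Jak1 (log2 fold change 0.14, 95% interval 0.02 to 0.25, edgeR adjusted p 0.375) and Jak2 (0.22, 0.05 to 0.39, edgeR adjusted p 0.363), with means higher in SIRT5F101L. That count of 2 became 0 without WT replicate 2 or SIRT5F101L replicate 2, and 1 without WT replicate 1, SIRT5F101L replicate 3 or SIRT5F101L replicate 4, or with no filter beyond 1 count. The groups overlapped for all 9 genes, where 4.02% of tested genes showed no overlap. The 95% intervals of this difference were -0.12 to 0.11 for Stat3, -0.08 to 0.19 for Stat5a, -0.22 to 0.10 for Socs3, -0.15 to 0.17 for Socs2, -0.22 to 0.19 for Jak3 and -0.35 to 0.17 for Socs1. The Tyk2 difference was -0.05 with an SE of 0.51, too wide to place.

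Leaving out SIRT5F101L replicate 1 added 2 calls. Jak1 was then called at 0.17 (edgeR adjusted p 0.0252) and Jak2 at 0.27 (edgeR adjusted p 0.0162), both higher in SIRT5F101L. In that fit 15.2% of all tested genes were called and 6.66% were called higher, against 2 of these 9 genes. The other 7 genes were not called there either, and among them Stat3 (0.02) and Tyk2 (0.14) had the opposite sign to their values with all libraries. That library had 360 CPM of Jak1 and 56.8 CPM of Jak2, inside the WT ranges of 347 to 364 and 49.1 to 58.9 CPM.

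Ratios within a library do not depend on scaling, and 5 were compared in 3 comparisons, 15 tests in all. By an exact 2-sided permutation test over the 70 arrangements of 8 libraries, whose smallest p is 0.0286, none passed after Benjamini-Hochberg adjustment over the 15, where the smallest adjusted p was 0.143. With so few libraries a ratio could pass only if most of the 15 reached the smallest p, so these tests say little either way. The log2 ratio of Socs3 to Socs2 counts was 0.01 ± 0.24 (SD, n = 4) in Control, higher by 0.99 in WT, with an SD of 0.08 there, and higher by 0.93 in SIRT5F101L, at 0.94 ± 0.17. All plasmid libraries lay above all Control libraries (exact permutation p 0.0286 and adjusted p 0.143 in each comparison with Control). For Jak2 to Jak1 the log2 ratio was -2.60 ± 0.10, -2.73 ± 0.11 and -2.64 ± 0.08, and the groups overlapped. Stat5a to Stat5b went from -0.10 ± 0.11 to -0.28 ± 0.07 and -0.31 ± 0.08 (exact permutation p 0.0571, adjusted p 0.171 in each comparison with Control). The ratios with Cish rest on few counts; of these, Socs3 to Cish in WT against Control reached the smallest p.

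Levels were compared between genes only per length, as CPM per kb of the longest transcript in GENCODE M21. In Control the order was Jak1 at 54.4 ± 2.26 (SD, n = 4), Stat3 at 40.5 ± 1.77, Socs3 at 18.1 ± 1.88, Stat5a at 13.3 ± 0.589, Socs2 at 10.8 ± 0.983, Jak2 at 8.76 ± 0.867, Socs1 at 3.98 ± 0.403, Jak3 at 3.68 ± 0.573, Cish at 0.0751 ± 0.0278 and Tyk2 at 0.0560 ± 0.0370 CPM per kb. Socs1 and Jak3, and Cish and Tyk2, differed by less than their SD. In WT the per-kb level of Socs3 was 41.8 ± 1.90 and that of Stat3 54.6 ± 2.23, and Jak3 at 7.76 ± 0.497 stood above Socs1 at 2.78 ± 0.233. In SIRT5F101L these genes stood at 40.1 ± 3.63, 54.3 ± 2.23, 7.68 ± 0.659 and 2.60 ± 0.355 CPM per kb. With union exon length in place of the longest transcript, Jak2 moved above both Stat5a and Socs2 in Control, at 8.76 against 7.38 and 4.81 CPM per kb, and Socs3 moved above Stat3 in WT, at 36.9 against 34.6, and in SIRT5F101L, at 35.4 against 34.5 CPM per kb, the latter by less than the SD. These parts of the order rest on the length chosen.

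Within the JAK family Jak1 made up most of the summed per-kb level, 81.3% ± 0.820 in Control, 79.6% ± 0.961 in WT and 79.7% ± 0.401 in SIRT5F101L. The share of Jak3 was 5.52% ± 1.02 in Control, 8.52% ± 0.682 in WT and 7.70% ± 0.788 in SIRT5F101L. Among the 8 SOCS family genes, Socs3 made up 30.9% ± 2.47, 43.2% ± 1.71 and 40.9% ± 2.50 and Socs1 6.82% ± 0.864, 2.87% ± 0.204 and 2.65% ± 0.284 of the family's summed level in the same order of groups. That sum was 58.5 ± 1.81 CPM per kb in Control, 96.7 ± 1.77 in WT and 97.9 ± 3.70 in SIRT5F101L. These shares take the low Tyk2 and Cish counts as listed, so the caution on low entries given for Tyk2 applies to them. The shares were not tested.

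**Figure D3:**
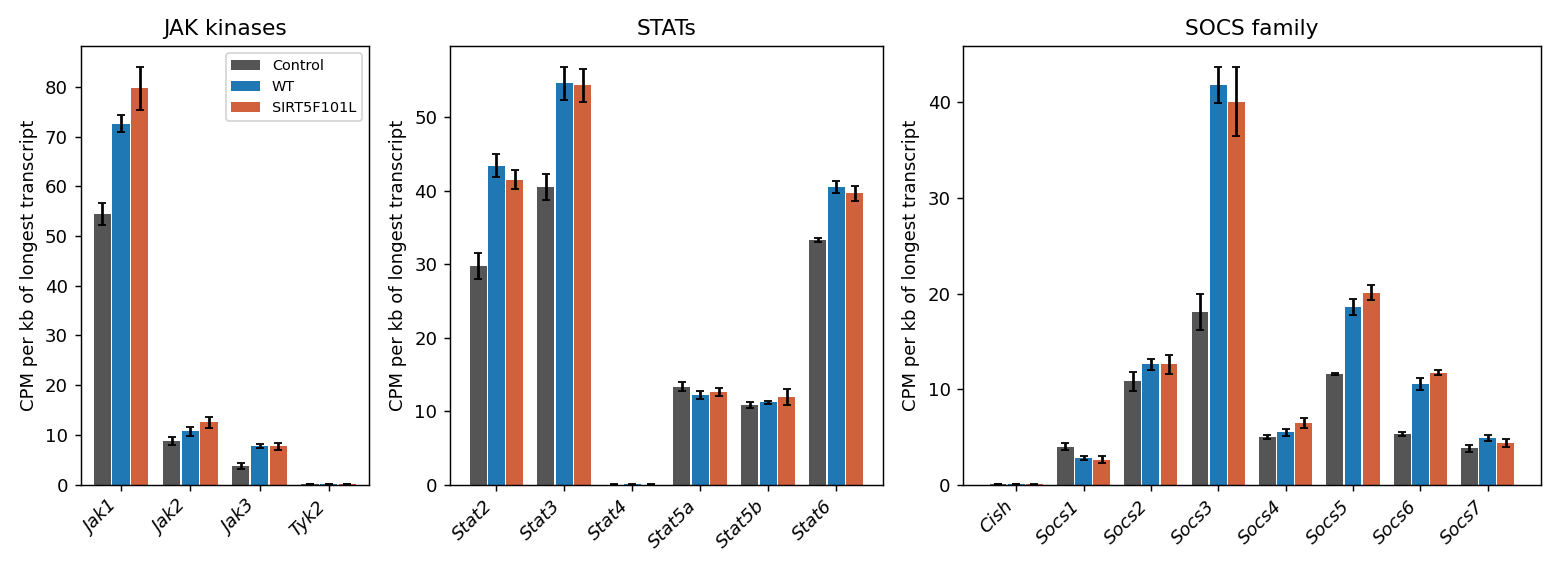
Mean level per kb of the longest transcript (bars, SD over 4 libraries as error bars) of the JAK and SOCS families and 6 STAT genes in Control, WT and SIRT5F101L libraries, on axes that start at 0. Jak1, Stat3 and Socs3 have the highest bars of their panels in all 3 groups, and Tyk2, Stat4 and Cish are at the axis. The place of Stat3 rests on the length chosen. With union exon length Stat6 was at 28.6, 34.7 and 33.9 CPM per kb in Control, WT and SIRT5F101L, and Stat3 at 25.7, 34.6 and 34.5.

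The remaining SOCS genes are less tied to JAK receptors; SOCS5 and SOCS6 are linked to receptor tyrosine kinases. Socs6 rose from 31.8 ± 1.29 CPM (SD, n = 4) to 63.6 ± 3.74 CPM in WT and 70.5 ± 1.64 CPM in SIRT5F101L (edgeR adjusted p 4.69e-11 and 4.59e-12). Socs5 rose by 0.69 and 0.79, and Socs4 had 0.14 in WT (edgeR adjusted p 0.119) and 0.38 in SIRT5F101L (edgeR adjusted p 0.000192). The difference between the plasmids for Socs4, 0.24, was not called by edgeR (adjusted p 0.330). Socs7, named here after its values were seen, rose in WT (0.37, edgeR adjusted p 0.00112) and had 0.20 in SIRT5F101L (edgeR adjusted p 0.0581). Over the whole family of 8, 5 genes rose, 1 fell, 1 was not called and Cish was not tested, in each comparison with Control. The gene not called was Socs4 in WT and Socs7 in SIRT5F101L. Of all tested genes, 28.7% were called higher and 28.1% lower in WT, and 30.0% higher and 30.7% lower in SIRT5F101L.

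Of the STAT genes outside the members, Stat2, which carries type I interferon signals, rose from 131 CPM to 191 CPM in WT and 182 CPM in SIRT5F101L, by 0.55 and 0.48 in log2 units (edgeR adjusted p 8.92e-08 and 4.84e-07). Stat6, the interleukin-4 factor, rose by 0.28 and 0.25. Irf9, the DNA-binding partner of STAT2, fell (-0.23 and -0.26, edgeR adjusted p 0.00656 and 0.00253). Stat4 had at most 2 counts in any library and was not tested. Stat5b was not called, as given with Stat5a, but without SIRT5F101L replicate 1 it was called higher in SIRT5F101L than in Control (0.20, edgeR adjusted p 0.00568).

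The counts that follow are to be read against those same shares of all tested genes. Ligands of JAK-coupled receptors were next. Of 37 listed, 10 were tested and 10 others were listed at 0. In WT 7 rose and 2 fell, and in SIRT5F101L 7 rose and 1 fell. Il6, the founding ligand of the gp130 family, rose from 1.67 ± 0.336 CPM (SD, n = 4) to 75.5 ± 4.34 CPM in WT and to a mean of 94.2 CPM in SIRT5F101L, whose 4 libraries ran from 90.8 to 99.9 CPM (log2 fold change 5.50 and 5.82, SE 0.11, edgeR adjusted p 3.03e-19 and 1.12e-19). Lif, another gp130 ligand, rose by 3.95 and 4.23, and Tslp, an epithelial alarm cytokine, by 3.06 and 3.31. Ifnb1, which encodes interferon beta, had 3 counts in Control replicate 3, 2 in SIRT5F101L replicate 1 and 0 in every other library.

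Between the plasmids Il6 was 0.32 higher in SIRT5F101L, with no overlap between groups, and was not called by edgeR (adjusted p 0.137). It was called by DESeq2 (adjusted p 0.00341), by edgeR with no filter beyond 1 count (0.31, adjusted p 0.00964) and by edgeR without SIRT5F101L replicate 1 (0.33, adjusted p 0.00141).

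Receptor genes went both ways: of 40 listed, 23 were tested, and 10 rose and 7 fell in each comparison with Control. Members of the gp130 receptor group also went both ways. Il6st, which encodes gp130, fell from 647 ± 42.9 CPM (SD, n = 4) to 392 ± 20.9 CPM in WT and 429 ± 33.7 CPM in SIRT5F101L (log2 fold change -0.72 and -0.59, SE 0.07, edgeR adjusted p 1.57e-08 and 2.56e-07), and Lifr, the LIF receptor chain, fell by 1.13 and 0.83 on the log2 scale. Osmr, the oncostatin M receptor chain, rose by 0.60 and 0.72, and Il6ra, the interleukin-6 binding chain, rose by 1.11 and 1.24 (edgeR adjusted p 9.63e-08 and 1.73e-08). Il11ra1, the interleukin-11 binding chain, fell from 119 CPM to 40.6 and 40.9 CPM (log2 fold change -1.55 and -1.54). Il6ra and Il11ra1 are named here after their values were seen. Il4ra, the interleukin-4 receptor chain, rose by 2.32 and 2.29, Lepr, the leptin receptor, by 2.59 and 2.89, and Il20ra, an interleukin-20 receptor chain, by 3.46 and 3.38. Ghr, the growth hormone receptor, rose from 90.2 ± 3.23 to 102 ± 5.42 and 110 ± 8.33 CPM (0.18 and 0.28, edgeR adjusted p 0.0197 and 0.000705). The WT call for Ghr was lost with upper-quartile scaling (0.13, edgeR adjusted p 0.0885), without Control replicate 1 (0.17, 0.0575) and without WT replicate 1 (0.15, 0.0790).

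Negative regulators other than SOCS proteins were all tested. Of 17, 5 rose and 6 fell in WT, and 5 rose and 8 fell in SIRT5F101L. Ptpn2, a phosphatase of JAK1, JAK3 and STATs, rose by 0.84 and 0.93 (SE 0.07, edgeR adjusted p 6.51e-09 and 1.29e-09). Ptpn6, the blood cell phosphatase SHP-1, fell from 3.24 ± 0.624 CPM to 1.18 ± 0.262 and 1.21 ± 0.258 CPM. Ptprc, whose values are given with Jak3, is on this list as well as among the leukocyte markers.

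Against the same shares, genes known as STAT targets or as interferon-response genes were counted from lists that overlap and include genes with other regulators. Of 24 STAT3 targets 21 were tested; 14 rose and 2 fell in WT, and 14 rose and 4 fell in SIRT5F101L, with a median of 0.90 and 0.83. The 2 that fell in WT became 4 with upper-quartile scaling and 1 without Control replicate 1 or any of WT replicates 1, 2 and 4. Lcn2, the iron-chelating acute-phase protein lipocalin 2, rose by 6.16 and 6.35, and Saa3 by 7.95 and 8.02. Of 12 STAT5 targets 10 were tested; 4 rose and 4 fell in WT, and 4 rose and 5 fell in SIRT5F101L, with a median of -0.01 and -0.09. Igf1, the growth factor made in answer to growth hormone, fell from 156 CPM to 67.1 and 78.8 CPM (log2 fold change -1.22 and -0.99), Igfals, which encodes a carrier subunit for IGF1, fell (-2.22 and -2.32), and Ccnd1, the G1 cyclin D1, rose from 273 CPM to 544 and 565 CPM. Of 22 interferon-response genes 19 were tested; 14 rose and 3 fell in WT, and 12 rose and 4 fell in SIRT5F101L. Cxcl9, a chemokine of the interferon-gamma response, rose by 5.02 and 5.14, Rsad2, an antiviral enzyme of the type I interferon response, by 4.93 and 4.99, and Gbp5, a guanylate-binding protein, by 2.55 and 2.71. No gene of these 3 lists was called between the plasmids by edgeR.

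**Figure D4:**
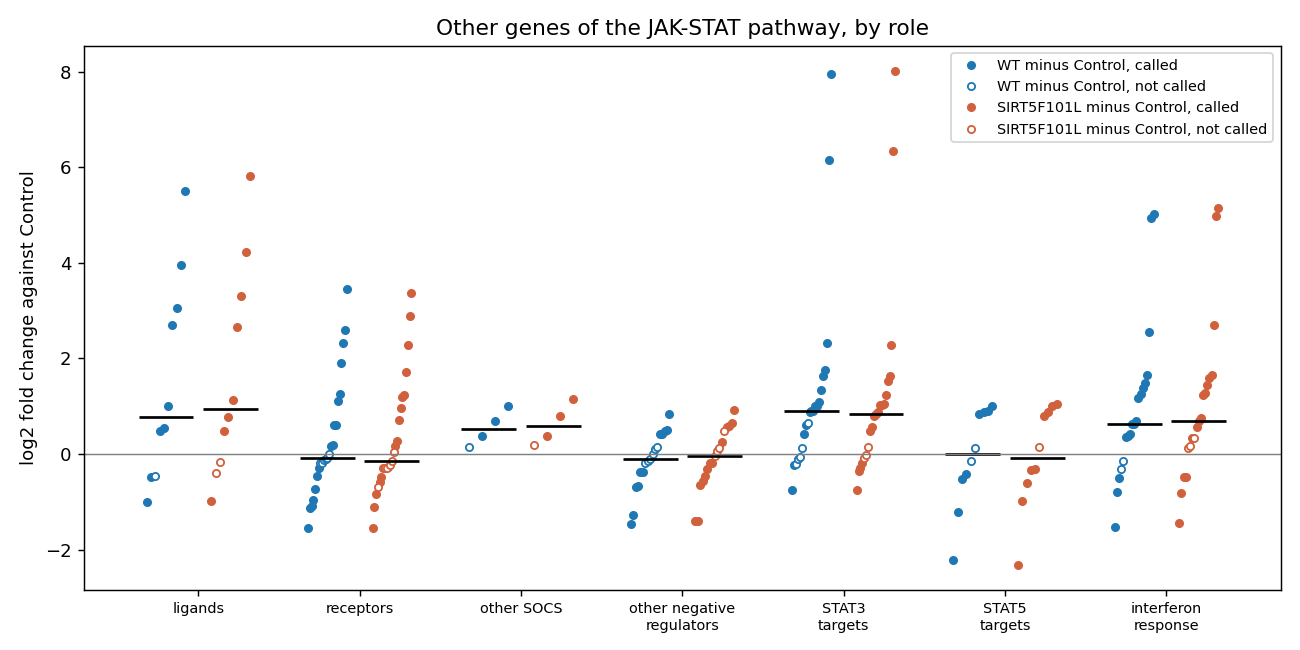
Log2 fold change against Control of every tested gene of 7 pathway lists, grouped by role; filled points were called and open points were not, and black bars are list medians. The highest ligand is Il6 at 5.50 in WT and 5.82 in SIRT5F101L, and the median STAT5 target lies at -0.01 and -0.09.

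The genes whose levels ran most nearly parallel to each member were taken by Pearson correlation of log2 CPM over the 12 libraries, among named genes averaging at least 5 CPM. The 12 points fall into the same 3 groups, so these values mostly restate the difference from Control and carry no p. For Socs3 they were Hmga1b (r = 0.993), Nectin2 (0.993) and Serpinb2 (0.992), and for Jak3 they were Exosc10 (0.991), Cerk (0.989) and Ikbke (0.987). Stat3 ran with Actn1 (0.992), Spred2 (0.990) and Mprip (0.990), and Jak1 with Cyfip1 (0.992), Thrb (0.990) and Arhgap29 (0.990). Socs1 ran with Armc6 (0.975), Kcnn1 (0.965) and Smarcb1 (0.961), and Jak2 with Cpne3 (0.960), Ero1l (0.956) and Tbc1d15 (0.956). The nearest genes were less close for Socs2 (Slc38a9, 0.924), Stat5a (Lrrc41, 0.897) and Tyk2 (Polr3f, 0.808).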

How the data were processed

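RNA was measured in 12 libraries. The authors deposited 1 table of raw read counts for each library, keyed by Ensembl ID. Beads carrying poly-T took mRNA from total RNA and reads were paired-end, per the labels' protocols. The submitters' processing notes list FastQC 0.11.9, HISAT2 2.2.1, HTSeq 2.0.2, DESeq2 1.38.3 and build GRCm39 without their roles; the annotation and strand setting are not given in the sources used here. GENCODE M21 and RefSeq (GRCm38) gave lengths, overlaps and promoter sequences, and 52029 of 57010 IDs had a symbol.

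edgeR (4.0.16, R 4.3.3) was run with TMM scaling, filterByExpr and a quasi-likelihood model with 9 residual degrees of freedom. The SE is the log2 fold change divided by the square root of F. The pipeline was tested on simulated counts. Alternatives were RLE and upper-quartile scaling, 2 other filters, DESeq2 (1.42.0), a robust prior, fits of 8 libraries and leaving out each library. Copies were sought with BLAST (2.17.0). The CPM of 1 count was 0.0413 to 0.0662; a floor of 3 counts and such depth limits cover counting error only.

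The members and lists were chosen with earlier results of these data known. Genes named beyond the members are 9 fixed by name, 1 of which is not reported here, the 3 called genes per list with the largest change against Control and a mean of at least 1 CPM, and the 3 genes most correlated with each member. No protein sequences were used here. Replicate numbers follow deposition order and pair nothing.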

Additional observations from a re-analysis of the deposited data

Results flagged for a closer look

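Each group of 4 libraries was screened for a library far from the other 3, by Dixon's ratio of gap to range (critical value 0.829), in the named genes, the marker sums and the ratios. The screen covered 147 sets of 4 values and found 11, where chance gives about 1 in 20, or 7.35. Among the 10 JAK, STAT and SOCS genes it found 1: Socs3 in WT replicate 2 was 114 CPM, against 104 to 105 in the other WT libraries. The chance rate is only a guide, since the sets share libraries and genes. In the Ifnb1 sets found, every other library of the group had 0, which fixes the ratio at its highest value.

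SIRT5F101L replicate 1 was found for 4 measures: Il6st at 379 CPM (440 to 450 in the others), Saa3, an acute-phase protein gene, at 476 CPM (255 to 283), the summed leukocyte and macrophage markers at 112 CPM (92.9 to 93.8) and Ifnb1 at 0.107 CPM (0 in the others, from 2 counts). Control replicate 3 had 0.160 CPM of Ifnb1, from 3 counts, where the other Controls had 0. Control replicate 2 was low in Il4ra, at 53.8 CPM (58.3 to 59.3), and in the summed chondrocyte markers, at 9288 CPM (11306 to 11645). Control replicate 4 had 36.4 CPM of Socs4 (33.3 to 33.6). WT replicate 3 had 2959 CPM of chondrocyte markers (2845 to 2861), and SIRT5F101L replicate 4 had 0.283 CPM of Ptprc (0.802 to 0.909).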

How the results depend on the processing

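Against Control, 6 to 7 of the 10 genes were called under each of the 19 alternatives in both comparisons, and Jak1, Jak2, Jak3, Stat3, Socs1 and Socs3 were called with the same sign in every alternative; the Socs2 and Stat5a exceptions are given beside those genes. When each of the 12 libraries was left out in turn, genes called over the whole table ran from 7549 to 8747 in WT and from 8030 to 9179 in SIRT5F101L. Between the plasmids the 6 called genes became 354 with no filter beyond 1 count, 43 by DESeq2, 2 with a robust prior and 2 with only the 8 libraries compared. Leaving out 1 library gave 0 to 2213 genes and 0 to 2 of the members, the high values without SIRT5F101L replicate 1; the cause was not tested. In the same comparison values near 0 changed sign when 1 library was left out: Jak3 ran from -0.06 to 0.03, Socs2 from -0.05 to 0.04, Stat3 from -0.03 to 0.02 and Tyk2 from -0.37 to 0.30 on the log2 scale. So did the log2 ratio differences Jak2 to Jak1 in SIRT5F101L against Control (-0.08 to 0.01), and between the plasmids Socs3 to Socs2 (-0.13 to 0.01) and Socs3 to Cish (-0.04 to 1.39). Ratios with 1 library left out have 35 arrangements and a smallest exact permutation p of 0.0571, so they cannot pass. No paired analysis was possible because the labels give no replicate numbers that link libraries across groups. Tyk2, Cish, Ifnb1 and Stat4 have too few counts for a precise value; why their counts are low was not tested.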
